A study of Mus musculus with 4 samples.

Results

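Sox9, Onecut1, Onecut2, Glis3, Hhex and Prox1 encode transcription factors of the trunk and duct epithelium of the pancreas. These 6 genes were chosen by name from 54532 gene IDs, and all 6 were among the 14828 genes that reached 1 FPKM (fragments per kilobase of exon, scaled for library depth by the authors) in at least 1 stage. They were followed by RNA sequencing of total RNA from the fetal pancreas of wild-type C57BL/6 mice at 4 embryonic days (written E) that run over E11.5, E13.5 and E15.5 to E18.5, with 1 sample for each. The study names the material as pancreatic epithelium. No source used here says how it was isolated or whether several fetuses were pooled.

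The early pancreatic bud is a tree of multipotent progenitors that later divides into tips, which give acinar cells, and a trunk, which gives ducts and endocrine cells. Sox9 maintains pancreatic progenitors and persists in the trunk and ducts, with Notch and Fgf signals upstream and the endocrine starter Neurog3 among its targets. Onecut1 (Hnf6) and its relative Onecut2, the zinc finger factor Glis3 and the homeobox factors Hhex and Prox1 act in the same epithelium, and in mice loss of Onecut1 or Glis3 gives cystic ducts. Each of these genes is also used in other fetal tissues: Sox9 in cartilage, neural crest and the inner ear, the Onecut genes in neurons and liver, Hhex and Prox1 in liver and endothelium, and Glis3 in kidney and thyroid.

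Promoter sequences, from RefSeq on GRCm38, are shown for Onecut1 and Hhex, which like Sox9 were at least 2-fold lower at E15.5 than at E13.5, and for Glis3, which did not pass the test at that step. Each is the upstream part of the promoter, 250 bases before the RefSeq start for Onecut1 (chr9:74861671-74861920, plus strand) and Glis3 (chr19:28680078-28680327, minus strand), and 219 bases for Hhex (chr19:37434591-37434809, plus strand), where 31 bases that the annotation counts as exon were left out. Capitals mark GC boxes, the letters GGGCGG or their reverse complement CCGCCC.
Onecut1: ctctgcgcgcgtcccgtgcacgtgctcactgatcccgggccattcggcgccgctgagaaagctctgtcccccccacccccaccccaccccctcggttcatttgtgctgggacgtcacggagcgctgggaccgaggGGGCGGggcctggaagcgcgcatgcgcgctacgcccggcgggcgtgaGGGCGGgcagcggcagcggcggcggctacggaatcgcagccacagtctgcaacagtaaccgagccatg
Hhex: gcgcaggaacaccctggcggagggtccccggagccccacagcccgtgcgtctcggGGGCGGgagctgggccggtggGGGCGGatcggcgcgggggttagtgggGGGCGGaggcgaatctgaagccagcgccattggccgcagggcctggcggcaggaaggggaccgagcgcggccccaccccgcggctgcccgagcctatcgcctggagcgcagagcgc
Glis3: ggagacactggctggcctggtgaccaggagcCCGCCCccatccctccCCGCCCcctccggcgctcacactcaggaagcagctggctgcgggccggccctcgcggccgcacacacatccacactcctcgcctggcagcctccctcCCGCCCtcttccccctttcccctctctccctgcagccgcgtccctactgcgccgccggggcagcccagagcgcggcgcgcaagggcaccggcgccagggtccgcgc

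All of these promoters are rich in G and C. The GC content is 71.6% with 31 CpG sites for Onecut1, 77.2% with 26 for Hhex and 75.6% with 24 for Glis3, against a median of 52.4% and 6 CpG sites over 32851 mouse promoters of 250 bases. Onecut1 holds 2 GC boxes, Hhex 3 and Glis3 3, and 32.7% of all promoters hold at least 1. The window before the first Prox1 start has 64.8% GC and 2 GC boxes, and it holds the reverse complement of the TATA box letters TATAAA at position -34 from the start, with 12.4% of all promoters holding these letters on either strand. None of these 4 windows holds, on either strand, the letters ATTGAT of the Onecut core (6.72% of all promoters), ACAATG of the Sox core (10.7%), GTGGGAA of the Rbpj core (5.42%) or GTAAACA of the Fox core (3.17%). Each share counts promoters with the letters on either strand, and a match or its lack describes the letters of a window alone.

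The deposited value of a gene is 1 mean per stage. Multiplied by exon length, the means were sums of whole reads from 2 libraries per stage, and the 2 were recovered for each of the 6 genes in every stage. The recovered libraries held an estimated 1.35e+07 to 1.77e+07 reads each. No label describes them or says that they came from separate fetuses, and the spread between them, all that the SDs and limma p-values below measure, may be technical. Levels are FPKM divided by a scaling factor per stage, from 0.962 to 1.03, and given as the mean ± SD of the recovered libraries (n = 2).

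Several marker lists of other tissues summed highest in the E11.5 sample, as the plot of summed marker lists shows. From E11.5 to E18.5, in order of stage, the 15 neuron markers summed to 2218, 32.0, 18.9 and 72.8 FPKM, the 14 otic markers to 1447, 8.32, 1.61 and 4.11 FPKM and the 15 cartilage markers to 411, 66.5, 39.9 and 82.3 FPKM. The 18 epithelium markers summed to 1381, 3804, 4977 and 5548 FPKM at the same stages, and Cdh1, the gene of E-cadherin, was at 6.28, 64.7, 82.4 and 75.2 FPKM. The 14 erythroid markers summed to 9817, 266, 296 and 640 FPKM. All 13 that were measured were lower at E13.5 than at E11.5 by the rule of size below, where 6.45% of all genes were. In a bulk sample, fewer cells of a type and less RNA per cell cannot be told apart, which holds for every comparison below.

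**Figure D1:**
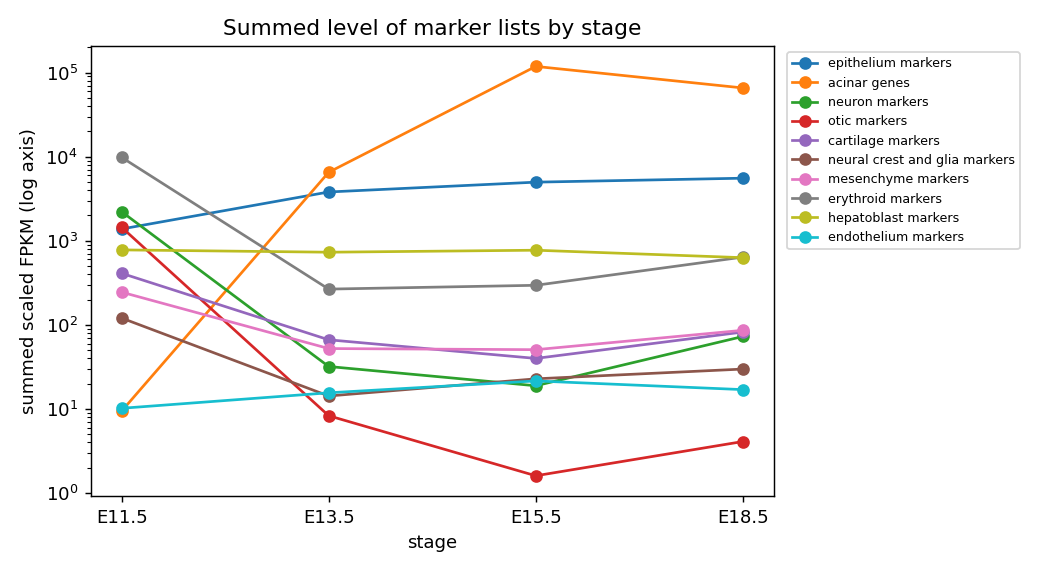
Summed scaled FPKM (log axis) of each marker list against stage, 1 point per stage and list. The neuron and otic lists are highest at E11.5, the acinar list is at 118352 FPKM at E15.5, against 9.44 FPKM at E11.5, and the endothelium list stays between 10.2 and 21.6 FPKM.

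Sox9 (ENSMUSG00000000567, chr11:112782224-112787760 on the plus strand of mm10) had 49.99 and 48.98 FPKM in the E11.5 libraries, 121 and 126 in those of E13.5, 49.5 and 47.4 in those of E15.5, and 125 and 125 in those of E18.5. Its level thus alternated: E13.5 and E18.5 were high and overlapped each other, and E11.5 and E15.5 were low and overlapped each other. Sox9 was 2.49 times as high at E13.5 as at E11.5 (log2 difference 1.30, SE 0.0342, limma adjusted p = 3.5e-07), a rise that turned to a difference of -0.41 when stages were scaled to the epithelium markers. It fell at E15.5 to 48.4 ± 1.53 FPKM, against 123 ± 3.56 FPKM at E13.5 (log2 difference -1.33, limma adjusted p = 1.8e-06). It rose at E18.5 to 125 ± 0.106 FPKM, against 48.4 ± 1.53 FPKM at E15.5 (log2 difference 1.35, limma adjusted p = 7.0e-07). E18.5 and E13.5 differed by 0.022 on the log2 scale and did not pass the test (SE 0.0343, limma adjusted p = 0.615). The last 2 steps share the E15.5 sample, so its value enters both.

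**Figure D2:**
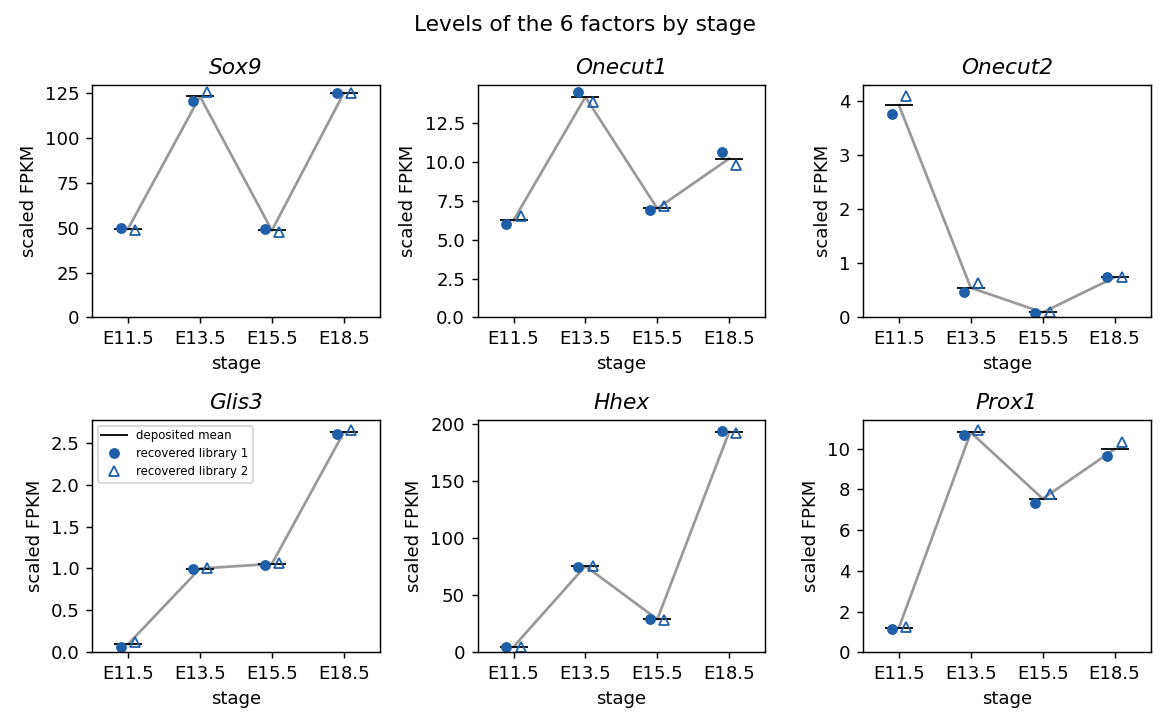
Scaled FPKM against stage for each of the 6 genes, with a bar for the deposited mean, a filled circle and an open triangle for the recovered libraries, and a grey line joining the means. Sox9, Onecut1, Hhex and Prox1 lie lower at E15.5 than at E13.5, Glis3 is highest at E18.5 with 2.62 FPKM, and Onecut2 is highest at E11.5 with 3.92 FPKM.

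Hhex, which in mice is needed for the ventral pancreatic bud and later marks ducts and delta cells, covered a 40.4-fold range between E11.5 and E18.5. It lies at chr19:37434810-37440731 on the plus strand (ENSMUSG00000024986). The E11.5 libraries had 4.89 and 4.66 FPKM of Hhex, the E13.5 libraries 75.1 and 76.0, the E15.5 libraries 29.2 and 28.6, and the E18.5 libraries 194 and 192. No 2 stages overlapped, with E18.5 highest and E11.5 lowest. Hhex was at 75.6 ± 0.663 FPKM at E13.5, against 4.78 ± 0.165 FPKM at E11.5, a ratio of 15.8 (log2 difference 3.73, SE 0.0322, limma adjusted p = 5.5e-09). It fell to 0.383 times that level at E15.5 (log2 difference -1.36, limma adjusted p = 1.3e-06). Hhex then rose 6.68-fold at E18.5 against E15.5 (log2 difference 2.70, limma adjusted p = 1.5e-07), and E18.5 was also above E13.5 by 1.34 on the log2 scale (limma adjusted p = 6.1e-07). In order of stage, Hhex was 0.0965, 0.614, 0.597 and 1.55 times the level of Sox9, so that it ended as the most abundant of the 6.

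Onecut1 (ENSMUSG00000043013, chr9:74861921-74891781 on the plus strand) encodes Hnf6, a factor upstream of Neurog3 and of duct shape in mice. Its libraries had 5.98 and 6.49 FPKM for E11.5, 14.5 and 13.8 for E13.5, 6.87 and 7.13 for E15.5, and 10.6 and 9.78 for E18.5. Onecut1 was high at E13.5 and low at E11.5 and E15.5, with E18.5 between and no overlap of E18.5 with the others. It rose 2.27-fold at E13.5 against E11.5 (log2 difference 1.07, SE 0.0595, limma adjusted p = 8.7e-06), and this too turned, to -0.51, on the epithelium scale. At E15.5 it fell to 6.997 ± 0.181 FPKM, against 14.2 ± 0.492 FPKM at E13.5 (log2 difference -0.92, limma adjusted p = 4.7e-05). The rise at E18.5 against E15.5 was 0.48 (limma adjusted p = 0.00042), and unlike Sox9, Onecut1 fell by 0.44 at E18.5 against E13.5 (limma adjusted p = 0.00085). Onecut1 shares 2171 exon bases with the same-strand noncoding gene Gm20649, which was listed at no more than 0.0426 FPKM, and 52.3% of its 50-base windows occur in another gene, so its level is uncertain.

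Onecut2, which overlaps Onecut1 in function in the mouse pancreas and liver, took another course (ENSMUSG00000045991, chr18:64340020-64400987 on the plus strand). The levels were 3.75 and 4.09 FPKM in the E11.5 libraries, 0.469 and 0.628 in those of E13.5, 0.0811 and 0.107 in those of E15.5, and 0.739 and 0.742 in those of E18.5. These rested on 920 and 981 reads at E11.5 and on 14 and 16 reads at E15.5. Onecut2 was highest at E11.5 and lowest at E15.5, with no overlap between stages. It fell by 1.67 on the log2 scale at E13.5 against E11.5 (SE 0.0774, limma adjusted p = 3.7e-06), a ratio of 0.140, and by 0.50 at E15.5 against E13.5 (limma adjusted p = 0.0018). It rose by 0.67 at E18.5 against E15.5 (limma adjusted p = 0.00031), where the ratio was 7.87, and E18.5 and E13.5 differed by 0.17 (SE 0.0768, limma adjusted p = 0.097). Its level stayed under the 5 FPKM that the rule of size below requires.

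The makeup of the Onecut family shifted with these changes. In order of stage, Onecut1 made up 55.8%, 90.8%, 96.4% and 93.0% of the summed FPKM of Onecut1, Onecut2 and Onecut3. The ratio of Onecut1 to Onecut2 was 1.59, 25.8, 74.3 and 13.8. The sum of all 3 was 11.2, 15.6, 7.26 and 10.96 FPKM, highest at E13.5 and lowest at E15.5, with the Onecut1 share uncertain as above. Neuron markers were lower beside Onecut2 at E13.5 against E11.5, 13 of 15 by the rule of size and 0 higher, where 6.45% of all genes were lower and 6.61% higher. Hepatoblast markers were mixed, with 7 of 12 measured lower and 4 higher, and the list of 15 summed to 779, 731, 772 and 630.0 FPKM in order of stage. Ttr and Dlk1 made up most of the sums at the later stages, with Ttr at 321, 533 and 491 FPKM from E13.5 to E18.5. The sum therefore does not show the course of the other members, such as Apoa1, at 7.86 FPKM at E13.5, against 155 FPKM at E11.5. Gap43, a growth cone gene of neurons, was at 2.38 FPKM at E13.5, against 520.0 FPKM at E11.5, and among the hepatoblast markers Afp, the fetal liver gene of alpha-fetoprotein, was at 26.4 FPKM at E13.5, against 337 FPKM at E11.5, while Dlk1 was at 345 FPKM at E13.5, against 70.7 FPKM at E11.5. Their part in the Onecut2 difference was not tested.

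Prox1, a homeobox factor of pancreatic progenitors and later of endocrine and duct cells, was low at E11.5 only (ENSMUSG00000010175, chr1:190118035-190170714 on the minus strand). The E11.5 libraries had 1.16 and 1.24 FPKM of it, the E13.5 libraries 10.7 and 10.9, the E15.5 libraries 7.31 and 7.78, and the E18.5 libraries 9.64 and 10.3. E11.5 was low and the 3 later stages were close together, with E15.5 lowest among them. Prox1 rose 8.99-fold at E13.5 against E11.5 (log2 difference 2.42, SE 0.0549, limma adjusted p = 1.9e-07). It fell by 0.47 at E15.5 against E13.5 (limma adjusted p = 0.00055) and rose by 0.36 at E18.5 against E15.5 (limma adjusted p = 0.0012), both less than 2-fold, while E18.5 against E13.5 gave -0.11 (SE 0.0547, limma adjusted p = 0.14). Reads of antisense genes cannot be set apart from Prox1, since whether the counting used strand is not given. Prox1os, which shares 133 exon bases with it, was at 1.54, 9.20, 7.22 and 14.2 FPKM from E11.5 to E18.5.

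Endothelium, among the other tissues that use Prox1 and Hhex, was low by its markers. Of the 15 endothelium markers, 13 or 14 were below 1 FPKM at every stage and from 1 to 5 were at 0, and the list summed to 10.2, 15.6, 21.6 and 17.0 FPKM in order of stage, with Egfl7 the highest member. Only 3 of the 15 were measured, and at E13.5 against E11.5 1 of them was higher by the rule of size and 0 lower, beside 6.61% and 6.45% of all genes. That 1 was Egfl7, a secreted endothelial factor, at 13.7 FPKM at E13.5, against 4.30 FPKM at E11.5. Other members went the other way, with Pdpn at 0.426 FPKM at E13.5, against 2.83 FPKM at E11.5. Pecam1, Kdr, Tek and Emcn, all below 1 FPKM, were also lower at E13.5 than at E11.5. Lyve1, a marker of lymphatic endothelium, was at 0.719, 0.483, 1.38 and 6.31 FPKM from E11.5 to E18.5, highest at E18.5 as Hhex was and Prox1 was not. Pdpn and Flt4 of the same list were instead highest at E11.5, at 2.83 and 0.0972 FPKM. At E13.5 against E11.5 hepatoblast markers went in both directions: Alb, the albumin gene, was at 0.552 FPKM at E13.5, against 65.4 FPKM at E11.5, while Ttr, the transthyretin gene, was at 321 FPKM at E13.5, against 44.4 FPKM at E11.5. The part of endothelium and liver in the levels of Hhex and Prox1 was not tested.

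Glis3, which in mice acts upstream of Neurog3 and on the insulin genes, was the lowest of the 6 at E11.5 (ENSMUSG00000052942, chr19:28258851-28680077 on the minus strand). Its libraries had 0.0679 and 0.126 FPKM for E11.5, 0.994 and 1.004 for E13.5, 1.04 and 1.06 for E15.5, and 2.60 and 2.65 for E18.5. The reads behind these numbered 11 and 20 at E11.5, and from 105 to 299 per library later. Glis3 was lowest at E11.5, 0.039 apart on the log2 scale between E15.5 and E13.5 (SE 0.0611, limma adjusted p = 0.615), and highest at E18.5. It rose by 0.87 at E13.5 against E11.5 (SE 0.0619, limma adjusted p = 2.7e-05), where the ratio was 10.3, and by 0.82 at E18.5 against E15.5 (limma adjusted p = 4.3e-05), where it was 2.49. Glis3 was the only one of the 6 that did not pass the test at E15.5 against E13.5, and its difference there was negative, down to -0.27, under 3 other scalings.

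**Figure D3:**
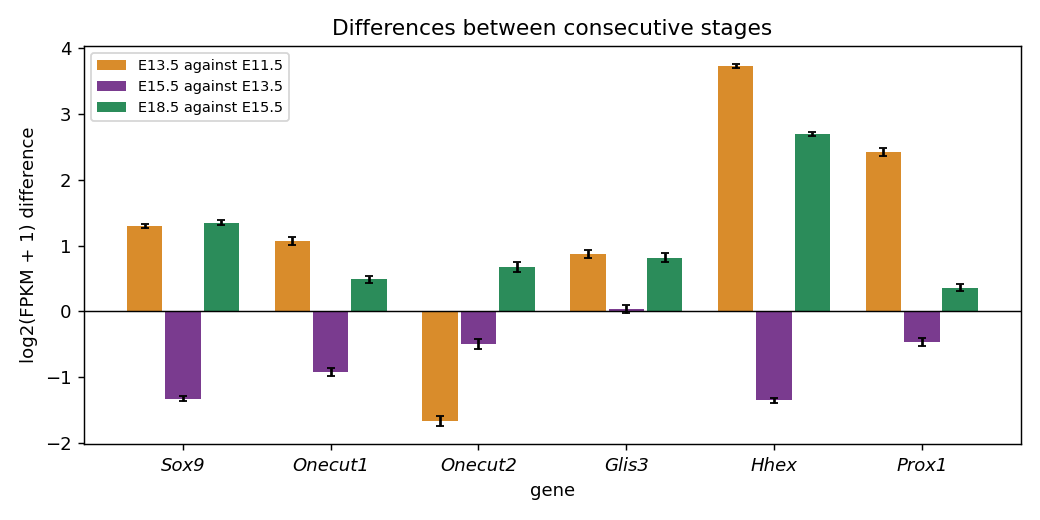
Difference in log2(FPKM + 1) of each gene at each consecutive step, later minus earlier stage, with bars for the limma estimate and whiskers of 1 SE from the recovered libraries. Sox9, Onecut1, Hhex and Prox1 are positive, negative and positive in turn, Onecut2 is negative at the first 2 steps, and Glis3 is near 0 at the second; on the epithelium scale the first bars of Sox9 and Onecut1 would be negative.

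By limma over all genes tested, 5 of the 6 rose and 1 fell at E13.5 against E11.5, where 32.7% of all genes rose and 37% fell. At E15.5 against E13.5, 0 rose and 5 fell, where 29.7% of all genes rose and 27.9% fell. At E18.5 against E15.5, 6 rose and 0 fell, where 38.1% of all genes rose and 31.6% fell. Set against E13.5, E18.5 had 2 that rose (Hhex and Glis3) and 1 that fell (Onecut1), with 36% and 25.9% of all genes. Set against E11.5, E18.5 had 5 that rose and 1 that fell (Onecut2), with 37.5% and 38.4% of all genes. Most genes passed in each comparison, so a call by this test is no mark of size. The rises of Sox9 and Onecut1 against E11.5 turned to falls on the epithelium scale, given below.

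A rule of size, which takes levels at least 2-fold apart and the higher one no lower than 5 FPKM, left fewer calls. Sox9, Onecut1, Hhex and Prox1, 4 of the 6, were higher at E13.5 against E11.5 and 0 lower (on the epithelium scale Hhex and Prox1 were higher and Onecut2 lower), where 6.61% of all measured genes were higher and 6.45% lower. Sox9, Onecut1 and Hhex, 3 of the 6, were lower at E15.5 against E13.5 and 0 higher, where 2.06% of all genes were lower and 4.3% higher. Onecut1 passed there by little, with a ratio of 0.494, and without library 1 of E13.5 or library 1 of E15.5 its call ended and the count was 2. Sox9 and Hhex were higher at E18.5 against E15.5 and 0 lower, where 7.3% of all genes were higher and 6.27% lower. Hhex alone was higher at E18.5 against E13.5, where 6.12% of all genes were higher and 3.59% lower, and Sox9, Hhex and Prox1 were higher at E18.5 against E11.5, with Sox9 turning to -0.67 on the epithelium scale, where 11.2% were higher and 8.52% lower. The median log2 difference of the 6 was 1.18, -0.71 and 0.74 at the 3 consecutive steps, beside -0.024, 0.00043 and 0.041 over all measured genes.

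A low level at E15.5 between higher levels at E13.5 and E18.5 was uncommon by the rule of size. It held for 147 of 14828 genes, or 0.991%, among them Sox9 and Hhex. Acinar transcripts summed highest at that stage, at 118352 FPKM over 18 genes at E15.5, against 6524 FPKM at E13.5. Of the 18, 16 were higher and 0 lower, beside 4.3% and 2.06% of all genes. Pnliprp1 and Ctrb1, at 47607 and 37973 FPKM, made up most of the E15.5 sum. At E18.5 against E15.5, 6 of the 18 were higher and 7 lower, beside 7.3% and 6.27% of all genes, so not every acinar gene was highest at E15.5. Under all alternatives tried, the difference of Sox9 at E15.5 against E13.5 lay between -1.94, with all stages set to the same FPKM total, and -1.26, with a pseudocount of 5, and that of Hhex lay between -1.97 and -1.25. Scaled to the epithelium markers the differences were -1.62 for Sox9, -1.65 for Hhex, -1.16 for Onecut1 and -0.72 for Prox1. The part of the acinar transcripts in these differences was not tested, and none of the scalings tests it.

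The same scale changed the comparisons with E11.5. The geometric mean of the 18 epithelium markers was 19.3, 63.6, 78.8 and 77.8 FPKM in order of stage. Per 100 FPKM of that mean, Sox9 stood at 257, 194, 61.5 and 161, and Onecut1 at 32.4, 22.3, 8.88 and 13.1, so both were highest at E11.5. Hhex stood at 24.8, 119, 36.7 and 248, Prox1 at 6.24, 17.0, 9.57 and 12.8 and Glis3 at 0.505, 1.57, 1.34 and 3.37, all lowest at E11.5. Onecut2 stood at 20.4, 0.862, 0.119 and 0.952, a wider fall than in FPKM. The direction against E11.5 was therefore the same on both scales for Hhex, Prox1, Glis3 and Onecut2. It was opposite for Onecut1 at the 3 later stages and for Sox9 at E13.5 and E18.5, while at E15.5 Sox9 was close to its E11.5 level in FPKM and lower on the epithelium scale. The 18 are markers of epithelium in general and not of the pancreas, so this scale gives no level per pancreatic epithelial cell. In the E11.5 sample the pancreatic factor Pdx1 was at 2.93 FPKM and the otic gene Oc90 at 1251 FPKM.

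**Figure D4:**
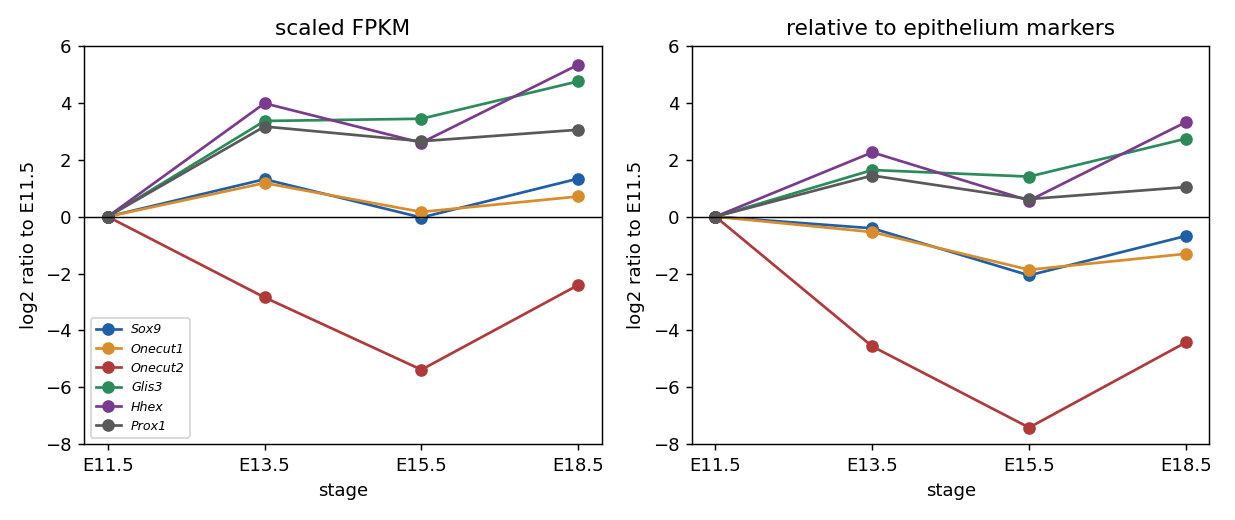
Log2 ratio of each gene to its own level at E11.5 against stage, from scaled FPKM on the left and from FPKM per geometric mean of the 18 epithelium markers on the right. Sox9 and Onecut1 are above 0 at E13.5 and E18.5 and near 0 at E15.5 on the left, and below 0 at the 3 later stages on the right, while Hhex, Prox1 and Glis3 are above 0 and Onecut2 below 0 on both.

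The marker lists of other tissues that use Sox9 summed highest at E11.5, though not every marker did so. Sox10, its relative in neural crest and glia, was at 2.36 ± 0.0646 FPKM at E13.5, against 41.9 ± 0.366 FPKM at E11.5, and the ratio of Sox9 to Sox10 was 1.18, 52.1, 46.8 and 38.3 in order of stage. The neural crest and glia list, 15 markers, summed to 121, 14.3, 22.9 and 29.8 FPKM, and 3 of 12 measured markers were lower at E13.5 against E11.5. By the rule of size 6.45% of all genes were lower at that step and 6.61% higher, and these shares hold for the lists that follow. In the cartilage list 4 of 12 measured markers were lower and 1 higher. By limma 7 of its markers fell and 4 rose, where 37% of all genes fell and 32.7% rose. Cnmd, the gene of chondromodulin, was at 0.232 FPKM at E13.5, against 268 FPKM at E11.5, and made up most of the E11.5 sum of 411 FPKM. Col2a1, the collagen gene of cartilage, was at 7.29 FPKM at E13.5, against 32.8 FPKM at E11.5, while Acan, the aggrecan gene, was at 2.78 FPKM at E13.5, against 0.0297 FPKM at E11.5, and Matn4, a matrilin gene, at 9.14 FPKM at E13.5, against 0.299 FPKM at E11.5. In the otic list 10 of 13 measured markers were lower and 0 higher, and the otoconial gene Oc90 was listed at 0 at E13.5 and E18.5 and was at 1251 FPKM at E11.5. Otx2 was listed at 0 at all 3 later stages and was at 38.8 FPKM at E11.5. The part of these tissues in the E11.5 levels of Sox9 and the other 5 genes was not tested.

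The order of the 6 levels, which compares genes per length, also moved. At E11.5 it ran Sox9, Onecut1, Hhex, Onecut2, Prox1 and Glis3, and no neighbours overlapped between libraries. At E13.5 it was Sox9, Hhex, Onecut1, Prox1, Glis3 and Onecut2, again without overlap. At E15.5 Prox1 stood at 7.54 ± 0.331 FPKM, just above Onecut1 at 6.997 ± 0.181 FPKM, with the rest in the E13.5 order. At E18.5 Hhex stood above Sox9, and Onecut1 at 10.2 ± 0.584 FPKM and Prox1 at 9.97 ± 0.474 FPKM overlapped. Among all measured genes Sox9 lay at the 92nd percentile of level at E11.5 and the 96.7th at E18.5, and Hhex at the 53.3rd and the 98.1st. The exon lengths behind the deposited values, which no source used here states, came out as 1918 bases for Hhex and 13391 for Onecut2, against 5056 and 16234 in the annotation used here, and such differences move a level between genes but not between stages.

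Close relatives of the 6 were followed beside them. Onecut3 was at 1.02, 0.883, 0.171 and 0.0245 FPKM from E11.5 to E18.5, and it fell at E15.5 against E13.5 (log2 difference -0.69, limma adjusted p = 0.00054). Glis2, a relative of Glis3 that is linked to kidney cysts, was at 5.48, 5.66, 8.07 and 7.07 FPKM, and it rose by 0.44 at E15.5 against E13.5 (limma adjusted p = 0.00028), where Glis3 did not pass. Sox8, Glis1 and Prox2 stayed at or below 1.27 FPKM. Of the 4 relatives that were measured, 1 (Sox10) was lower at E13.5 against E11.5 by the rule of size, where 6.45% of all genes were. At the later consecutive steps 0 passed the rule, where 4.3% and 7.3% of all genes were higher and 2.06% and 6.27% lower.

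The genes with the most similar profiles, by the root mean square distance of centred log2(FPKM + 1) values over the 4 stages among 7728 protein-coding genes, differed in number between the 6. Nearest to Sox9 were Sesn1 (distance 0.0761), Vill (0.115) and Twsg1 (0.117), with 10 genes within 0.2. For Hhex only Pamr1 was that close (0.175), followed by Hepacam2 (0.211) and Pik3ap1 (0.243). Pamr1 was at 0.699, 17.5, 5.72 and 40.5 FPKM, the same sequence of high and low stages as Hhex. Onecut1 had 40 genes within 0.2, led by Hs6st1, Cercam and Exoc6, and Prox1 had 9, led by Apoc1, Misp and Ephx2. Onecut2 had 67, led by Wscd1, Mogat2 and Fn1, and Glis3 had 128, led by Mbnl2, Naglu and Tnip2. This scale understates changes at low levels, so the numbers for Onecut2 and Glis3 cannot be set beside those of the more abundant genes. Mbnl2 was at 4.98 FPKM at E11.5 and 19.7 FPKM at E18.5, and Glis3 at 0.0971 and 2.62 FPKM, a far larger ratio. Among the 6 themselves Sox9 and Onecut1 were the nearest pair (0.324), and Hhex and Onecut2 the farthest apart (2.49).

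Other factors of progenitors and trunk gave the setting. Of 17 such factors 11 were higher at E13.5 against E11.5 by the rule of size and 0 lower, beside 6.61% and 6.45% of all genes. The list median was 1.87 on the log2 scale, beside -0.024 over all genes. At E15.5 against E13.5, 3 were higher and 0 lower (median 0.16), beside 4.3% and 2.06% of all genes. By limma 9 rose and 6 fell, where 29.7% of all genes rose and 27.9% fell. The 3 higher ones were the tip and acinar factors Ptf1a and Nr5a2 and the Notch target Hes1, and Ptf1a was at 119 ± 0.0133 FPKM at E15.5, against 30.4 ± 1.17 FPKM at E13.5. On size, 2 were higher (Mnx1 and Bicc1) and 5 lower at E18.5 against E15.5, Ptf1a and Nr5a2 among the lower, beside 7.3% and 6.27% of all genes. Pdx1 and Nkx6-1, progenitor and later beta cell factors, and Foxa2 differed by less than 2-fold at both of these steps. They were low at E11.5 and among the factors that were higher at E13.5. Pdx1 was at 79.0 FPKM at E13.5, against 2.93 FPKM at E11.5. Nkx6-1 was at 52.9 FPKM, against 1.49 FPKM, and Foxa2 at 48.1 FPKM, against 2.48 FPKM, at the same stages. How far the E11.5 levels of the 6 genes share in this was not tested.

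**Figure D5:**
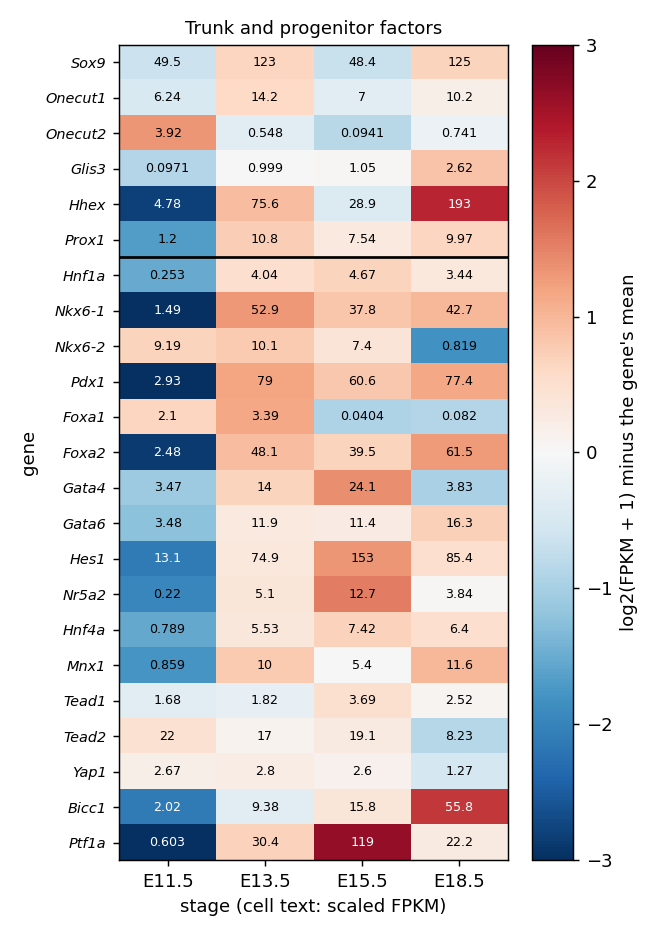
Log2(FPKM + 1) minus the gene's own mean over the 4 stages, as colour that ends at 3 in either direction, for the 6 genes above the line and 17 other progenitor and trunk factors below it, with scaled FPKM printed in each cell. Sox9 and Hhex are paler or bluer at E15.5 than at E13.5 and E18.5, while Ptf1a, Nr5a2 and Hes1 are reddest at E15.5.

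Genes of the signals upstream of Sox9 went in both directions. Of 19 measured genes of Notch, Fgf and Hippo signalling, 4 were higher and 2 lower at E13.5 against E11.5, 2 were higher and 1 lower at E15.5 against E13.5, and 3 were higher and 3 lower at E18.5 against E15.5 (medians 0.081, 0.017 and -0.28). Over all genes the shares at these steps were 6.61% and 6.45%, 4.3% and 2.06%, and 7.3% and 6.27%. The medians over all genes were -0.024, 0.00043 and 0.041. Fgfr2, the receptor that keeps Sox9 in mouse progenitors, was at 3.04 ± 0.217, 6.44 ± 0.426, 3.29 ± 0.135 and 11.4 ± 0.407 FPKM from E11.5 to E18.5. It was high and low at the same stages as Sox9, and it fell by 0.79 at E15.5 against E13.5 (limma adjusted p = 0.00013). Its ligand Fgf10, made by mesenchyme, was at 0.0371 FPKM at E13.5, against 9.55 FPKM at E11.5, and 9 of 13 measured mesenchyme markers were lower there too. Hes1 was at 74.9 ± 0.503 FPKM at E13.5, against 13.1 ± 0.204 FPKM at E11.5, higher as Sox9 was in FPKM. At the last 2 steps, which share the E15.5 sample, it went the other way to Sox9, at 153 ± 6.79 FPKM at E15.5 and 85.4 ± 3.68 FPKM at E18.5.

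Glis3 and Onecut1 mutants share cystic ducts in mice, so cilium and cyst genes were counted too. Of these, 5 of 16 measured were higher and 0 lower at E18.5 against E15.5, beside 7.3% and 6.27% of all genes. The list median was 0.73, beside 0.041 over all genes. By limma 14 rose and 1 fell, where 38.1% of all genes rose and 31.6% fell. At E15.5 against E13.5, 0 were higher and 1 lower (Kif12), beside 4.3% and 2.06% of all genes. By limma 2 rose and 8 fell at that step, where 29.7% of all genes rose and 27.9% fell. At E13.5 against E11.5, 2 were higher and 2 lower on size, beside 6.61% and 6.45% of all genes. By limma 5 rose and 6 fell there, where 32.7% of all genes rose and 37% fell. Kif12, a kinesin gene that modifies cystic kidney disease in mice, was at 1.78 ± 0.211, 45.1 ± 1.23, 22.5 ± 2.02 and 50.6 ± 1.17 FPKM. Cys1, the cystin gene, was at 0.542 ± 0.00904, 4.85 ± 0.335, 3.56 ± 0.202 and 9.81 ± 0.117 FPKM. Bicc1, whose loss gives cystic ducts in mice, was at 2.02 ± 0.133, 9.38 ± 0.212, 15.8 ± 0.148 and 55.8 ± 0.899 FPKM, lowest at E11.5 and highest at E18.5 as Glis3 was, with no low stage at E15.5.

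Duct products were counted beside the factors. Of 24 measured, 11 were higher and 1 lower at E13.5 against E11.5, 4 higher and 3 lower at E15.5 against E13.5, and 9 higher and 0 lower at E18.5 against E15.5 (medians 1.04, 0.013 and 0.69). All genes gave 6.61% and 6.45%, 4.3% and 2.06%, and 7.3% and 6.27% at these steps, with medians of -0.024, 0.00043 and 0.041. Spp1, the osteopontin gene, was at 52.0, 4415, 1741 and 16964 FPKM from E11.5 to E18.5, high and low at the same stages as Hhex. Its later means could not be split into reads, so it had no test. Tspan8 and Ces1d were the other 2 that were lower at E15.5. Muc1, a mucin of the apical duct surface, was at 1.41 ± 0.309, 40.3 ± 0.868, 94.1 ± 0.429 and 143 ± 1.81 FPKM, with no low stage at E15.5.

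Early endocrine genes, of which Neurog3 lies downstream of Sox9, Onecut1 and Glis3 in mice, were counted by the rule of size. At E15.5 against E13.5, 6 of 22 were lower and 1 higher, beside 2.06% and 4.3% of all genes. The list median was -0.61, beside 0.00043 over all genes. At E18.5 against E15.5, 14 were higher and 0 lower (median 1.19, beside 0.041). Over all genes 7.3% were higher and 6.27% lower at that step. Neurog3 was at 0.429 ± 0.0538, 134 ± 5.01, 85.8 ± 1.08 and 200.3 ± 2.04 FPKM from E11.5 to E18.5. It fell by 0.63 at E15.5 against E13.5 (limma adjusted p = 4.6e-05), less than the 2-fold of the rule. Pax4, which acts in beta cell precursors, was at 0.248 ± 0.0769, 67.0 ± 1.25, 26.5 ± 0.896 and 66.2 ± 1.77 FPKM, with E13.5 and E18.5 overlapping as for Sox9. At E13.5 against E11.5, 10 of these genes were higher and 2 lower, beside 6.61% and 6.45% of all genes. The lower ones were Neurod1 and Isl1, which neurons also use.

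Genes tied to Glis3 in beta cells were higher at E18.5 against E15.5 in 6 of 8 and lower in 0 (median 2.46, beside 0.041). Over all genes 7.3% were higher and 6.27% lower there. Ins2, an insulin gene whose promoter Glis3 binds, was listed at 0 in the E11.5 sample and had 29.0, 614 and 5323 FPKM at the later stages in order. Mafa, a beta cell factor, was at 0.0908, 0.373, 1.16 and 6.18 FPKM. Slc30a8, the zinc transporter of insulin granules, was at 0.112 ± 0.00187, 1.048 ± 0.131, 4.21 ± 0.169 and 87.5 ± 1.504 FPKM. Mafa and Slc30a8 rose at E15.5 against E13.5 (limma adjusted p = 1.2e-05 for Slc30a8 and 0.0028 for Mafa), a step at which Glis3 did not pass the test. Both stayed under the 5 FPKM of the rule of size there. The list went in both directions at this step. By limma 5 of the 8 rose and 3 fell, where 29.7% of all genes rose and 27.9% fell. On size, 2 were higher and 1 lower, beside 4.3% and 2.06% of all genes. The lower one was Slc2a2, at 1.56 FPKM at E15.5, against 6.08 FPKM at E13.5.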

How the data were processed

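The deposited values are mean FPKM per Ensembl gene, 1 file per stage, named as averages per the file headers. HISAT2 2.0.5 and the mm10 build are named per the submitters' processing notes. No source used here names the counting tool, annotation, exon lengths or number of libraries. The authors deposited FPKM for 54532 gene IDs, of which 54495 had a symbol in GENCODE M21. Columns left unused numbered 0.

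Each stage was scaled with its median-of-ratios factor (0.988, 1.03, 1.03 and 0.962 from E11.5 to E18.5) from the 9884 genes that reached 1 FPKM in each stage. Differences are on the log2(FPKM + 1) scale, later minus earlier, which understates changes at low levels. The planned main result was the rule of size, there being 1 sample per stage. In addition, each mean times exon length was split into whole reads of 2 libraries within 1.05 of its last printed place (10 significant digits). In each stage 99.0% to 99.3% of 14825 measured genes were split, and 631 of 704 genes that gave no pair at the M21 length were given another length. Genes with too many reads were left whole. A trended limma model (limma 3.58.1, R 4.3.3) was fitted over 14736 genes and all 8 libraries. Every adjusted p is from that fit, by the Benjamini-Hochberg method with a threshold of 0.05. Both steps were tested on simulated data drawn from the same model. Other tools were Python 3.11.15, numpy 2.4.6, pandas 2.3.3 and matplotlib 3.10.9.

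The members and all 17 lists beside them were chosen with earlier results of these data known. In the trunk factor and cilium lists 1 gene is not reported here and was left out of their counts. Named genes were the members, their relatives, the 3 nearest profiles each, every other trunk factor, and from each list at most 6 genes past the rule with the greatest differences and at most 4 of the highest level; not all are described. Tspan8, Ces1d, Isl1 and Acan fall outside that rule and were named after their values were seen. Library denominators were not plain read totals, so reads are estimates.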

Additional observations from a re-analysis of the deposited data

How the results depend on the processing

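The rule of size was recomputed under other scalings, minimum levels and folds, and 115 of 130 alternative counts lay within 1.5 times the main one. Of members higher at E13.5 against E11.5 (4), there were 2 with stages scaled to the epithelium markers, 2 with a minimum of 20 FPKM and 2 at 3-fold. Members lower there (0) numbered 1 with the same FPKM total, 1 on the epithelium scale and 1 with no minimum. At E15.5 against E13.5 members lower (3) numbered 0 at 3-fold. At E18.5 against E15.5 members higher (2) numbered 4 with no minimum and 1 at 3-fold. At E18.5 against E13.5 members higher (1) numbered 0 with the same total, 2 with no minimum and 0 at 3-fold. At E18.5 against E11.5 members lower (0) numbered 1 with the same total, 2 on the epithelium scale and 1 with no minimum. The epithelium scale, and a 2-fold rule on the log2(FPKM + 1) scale, were chosen after seeing the data. On the epithelium scale the log2 difference of Sox9 was -0.41 for E13.5 against E11.5 and -0.67 for E18.5 against E11.5, that of Onecut1 was -0.51 at E13.5 against E11.5, and that of Onecut1 at E18.5 against E11.5, past the rule of size on this scale but not in the main result, was -1.19; that scale sets E11.5 levels 2.72 times as high and later ones 0.665 to 0.824 times. Of 330 alternative differences of single members 13 had the other sign, these 4 among them, and the others were at E15.5 against E13.5 for Glis3 and at E18.5 against E13.5 for Sox9 and Onecut2, whose main differences were 0.04, 0.02 and 0.17. Leaving out each recovered library in turn gave 2 to 3 members lower at E15.5 against E13.5 and the main count in the other 9 cases. The cause of these differences was not tested. No paired analysis was possible because each stage has 1 labelled sample and the recovered libraries carry no shared numbers. Reads limit Onecut2 at E15.5 (14 and 16) and Glis3 at E11.5 (11 and 20); the p-values hold no variation between fetuses that the libraries do not share.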
